A study of Mus musculus with 15 samples.

Results

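The quadriceps of mTg mice, which overexpress the coactivator PGC1α in skeletal muscle, was compared with the quadriceps of control mice by RNA-seq. The 10 libraries compared were 5 from controls and 5 from mTg mice. Genes were taken into the comparison when their mean over these 10 libraries reached 0.5 FPKM, a read count scaled by transcript length and library depth, and 11648 of the 12529 genes listed for the series met that rule. The series holds 15 libraries in all, the other 5 from wild-type mice given running wheels (Ex), and each library carries a replicate number within its group. Both groups of the comparison are C57BL/6 by label and sedentary. Controls are wild type, and mTg mice carry the genotype label PGC1a Tg(+), a *Ppargc1a* transgene which the paper places under the muscle creatine kinase promoter. That promoter is active in muscle fibers, so that other cells of the tissue should not carry the transgene's RNA. Per the methods the mice were male, the mTg mice were studied beside their littermates, and mice for the running experiment were purchased C57BL/6J animals. Which of these the 5 control libraries are, and the age of the mTg mice, are not stated in the sources. It is not stated that each library is a separate animal, so the p-values measure the spread between these libraries, part of which may be technical.

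PGC1α does not bind DNA itself. It docks on transcription factors such as the estrogen-related receptors, the PPARs, the nuclear respiratory factors and MEF2, and it recruits histone acetyltransferases and Mediator to their target genes. In muscle it is induced by exercise, and it is best known for driving mitochondrial biogenesis, fatty acid oxidation, capillary growth and the program of fatigue-resistant fibers. Quadriceps is a mixed muscle in which fast glycolytic fibers prevail.

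Reads assigned to the listed genes numbered 15686582 to 16917490 per control library and 11475817 to 15381111 per mTg library. The 10 most abundant genes held 32.3% to 33.6% of the summed FPKM in controls and 23.0% to 24.7% in mTg. Markers of muscle fibers, 9 genes with *Acta1* and *Ckm* among them, took 16.8% ± 0.170 of the summed FPKM in controls and 13.4% ± 0.526 in mTg (SD, n = 5). Of these 9 genes 5 fell and 3, *Mb*, *Myh1* and *Actn2*, rose. Libraries of 1 group were not equally alike. Recovered reads of control replicate 5 differed from those of the other controls by a chi-square per gene of 15.2 to 22.3, against 7.07 to 10.9 among the other 4. Replicates 1 and 2 of mTg stood apart likewise (15.2 to 27.0, against 6.62 to 9.26 among replicates 3 to 5). Control replicate 5 was the highest control for 468 of the 953 genes called higher by over 1.5-fold in mTg (49.1%), and the lowest control for 191 of the 560 called lower by that much (34.1%). List counts below are therefore also given without control replicate 5 or without these 3 libraries where they move by over 1.5 times. *Nnt*, which is disrupted in the C57BL/6J substrain but not in C57BL/6N, was 9.10, 9.55, 7.82, 8.61 and 5.98 FPKM in the control libraries and 21.8, 18.9, 14.4, 6.49 and 22.4 FPKM in the mTg libraries. The mTg libraries spread over a wider range than the controls and the groups overlapped (log2 fold change 0.85 ± 0.26, adjusted p = 0.0156, and 0.51 without the 3 libraries that stand apart). The part of substrain in other genes was not tested.

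*Ppargc1a* itself measured 5.45, 6.46, 12.5, 8.01 and 5.06 FPKM in the control libraries and 50.1, 56.8, 52.1, 53.8 and 56.4 FPKM in the mTg libraries. Every mTg library lay above every control (log2 fold change 2.75 ± 0.17, adjusted p = 5.59e-08, limma on log2(FPKM + 1), which is the scale and the test of all fold changes below). Reads from the transgene and from the endogenous gene are counted together. The creatine kinase gene *Ckm*, from which the transgene's promoter was taken, was 19943, 18675, 19446, 21035 and 21068 FPKM in the control libraries and 15048, 12292, 15068, 13782 and 13678 FPKM in the mTg libraries. It fell (log2 fold change -0.52 ± 0.08, adjusted p = 1.84e-04).

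The quadriceps of mTg mice held more RNA for mitochondria and less for fast contraction, glycogen use and calcium handling than that of controls. At an adjusted p under 0.05, 2609 of the 11648 genes tested (22.4%) were higher in mTg and 2690 (23.1%) were lower. Changes over 1.5-fold were more often increases (953 genes) than decreases (560 genes), and so were changes over 2-fold (298 against 151). All 5 mTg libraries lay above all 5 controls in 1902 genes (16.3%) and below them in 1860 (16.0%). The median log2 fold change of all tested genes was -0.02, close to no change. The 95% interval of the log2 fold change fell within -0.25 to 0.25 in 1901 genes, none of which was called, and the other 4448 uncalled genes are ones these libraries did not settle. Strongly expressed genes were called most often, as the plot of change against level shows. The scale understates changes of low genes, which also carry the most counting error. Of the 266 genes at 200 FPKM or more, 145 (54.5%) were higher and 73 (27.4%) were lower, whereas of the 2483 genes below 2 FPKM 448 (18.04%) were higher and 329 (13.3%) were lower. Summed over the genes called higher, the mTg mean exceeded the control mean by 79729 FPKM, and it changed by -86167 FPKM in the genes called lower. The 10 genes with the largest losses made up 53.5% of the loss, and they encode proteins of the thin and thick filaments (*Acta1*, *Tnnt3*, *Tnnc2*, *Tnni2*, *Myh4* and *Myl1*), of calcium handling (*Pvalb* and *Atp2a1*), creatine kinase (*Ckm*) and the glycolytic aldolase (*Aldoa*). The gain was spread more widely, with 24.3% in its first 10 genes, *Mb*, *Ckmt2*, *Slc25a4*, *Atp5b*, *Myh1*, *Atp5g3*, *Atp5a1*, *Cox4i1*, *Ndufa4* and *Cox7a1*, of which all but myoglobin and myosin heavy chain IIx are mitochondrial.

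**Figure D1:**
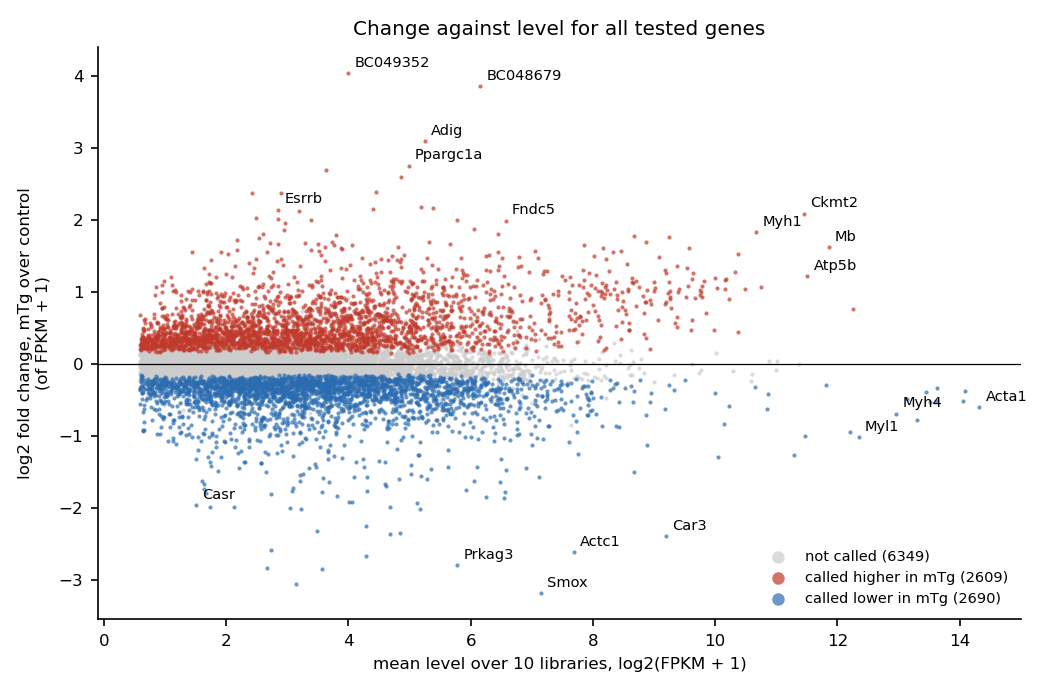
Log2 fold change of mTg over control (vertical axis, log2 of FPKM + 1) against the mean level over the 10 libraries (horizontal axis, log2 of FPKM + 1) for the 11648 tested genes, 1 point per gene. Red points are the 2609 genes called higher, blue points the 2690 called lower, gray points are not called, and the most abundant genes on the right, such as *Acta1* and *Myl1*, lie below 0 while *Ckmt2*, *Mb* and *Atp5b* lie above it.

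Among the transcription factors and cofactors that work with PGC1α, the estrogen-related receptors stood out. There were 35 listed genes, that of PGC1α itself included and all tested. Of these 11 rose (31.4%, against 22.4% of all genes) and 9 fell (25.7%, against 23.1%). Their median log2 fold change was -0.01, close to that of all genes. *Esrra*, encoding the receptor ERRα that PGC1α coactivates on mitochondrial genes, was 46.0, 40.5, 41.9, 45.5 and 51.9 FPKM in the control libraries and 117, 103, 123, 106 and 107 FPKM in the mTg libraries. Its mTg libraries were all over 100 FPKM and its controls all under 55 (log2 fold change 1.29 ± 0.08, adjusted p = 3.56e-08). *Esrrb* rose from far lower levels (1.71, 1.52, 1.64, 1.31 and 2.18 FPKM in controls, 10.4, 10.7, 9.97, 11.5 and 11.2 in mTg; log2 fold change 2.14 ± 0.08, adjusted p = 2.08e-09), and *Esrrg* rose less (0.43 ± 0.12, groups overlapping). The ratio of *Esrrg* to *Esrra* was therefore lower in mTg (log2 ratio -3.39 ± 0.16 in controls and -4.19 ± 0.34 in mTg, SD). By an exact two-sided permutation test over 32 ratios its adjusted p was 0.0141. That is the smallest value this test gave, and many other ratios share it. *Perm1*, a muscle-specific regulator induced by PGC1α and ERR, was 81.7, 72.5, 86.7, 80.3 and 104 FPKM in the control libraries and 229.5, 192, 204, 196 and 215 FPKM in the mTg libraries, again without overlap (log2 fold change 1.28 ± 0.09, adjusted p = 1.26e-07). *Tfam*, the factor that packages and transcribes mitochondrial DNA, rose from 13.0 to 21.0 FPKM (0.64 ± 0.09). The gene of nuclear respiratory factor 1 did not pass the test: *Nrf1* was 2.66 FPKM in controls and 2.34 in mTg (95% interval -0.28 to 0.01). Of the retinoid X receptors, partners of the PPARs, *Rxra* fell from 45.1 to 26.4 FPKM (-0.75 ± 0.06) and *Rxrg* from 28.9 to 16.7 FPKM (-0.76 ± 0.07), each with all mTg libraries below all controls.

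The 250 bases of reference genome before the start of *Esrra* (RefSeq, GRCm38.p6, chr19:6921809-6922058, minus strand) are shown because they hold matches to the core of the NRF1 site, CGCANGCG, and to the ATF4 element, TGATGNAA, written in capitals. Beside them stand the same windows of *Atp5g3* (chr2:73911327-73911576, minus strand), with a match to the element of the estrogen-related receptors, TNAAGGTCA, on the other strand (TGACCTTGA), and of *Ndufb10* (chr17:24724424-24724673, minus strand), with an NRF1 core ending 19 bases before the start. All 3 genes rose.
Esrra: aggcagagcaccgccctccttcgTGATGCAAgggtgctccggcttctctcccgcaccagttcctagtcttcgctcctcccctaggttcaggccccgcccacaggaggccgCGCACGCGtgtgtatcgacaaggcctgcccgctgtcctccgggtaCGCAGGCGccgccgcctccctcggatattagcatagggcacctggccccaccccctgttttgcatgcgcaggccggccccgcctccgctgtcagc
Atp5g3: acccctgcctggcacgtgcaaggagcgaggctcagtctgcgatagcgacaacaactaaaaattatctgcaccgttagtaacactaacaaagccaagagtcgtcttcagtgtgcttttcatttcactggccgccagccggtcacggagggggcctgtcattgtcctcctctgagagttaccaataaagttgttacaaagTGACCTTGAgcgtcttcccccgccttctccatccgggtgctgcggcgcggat
Ndufb10: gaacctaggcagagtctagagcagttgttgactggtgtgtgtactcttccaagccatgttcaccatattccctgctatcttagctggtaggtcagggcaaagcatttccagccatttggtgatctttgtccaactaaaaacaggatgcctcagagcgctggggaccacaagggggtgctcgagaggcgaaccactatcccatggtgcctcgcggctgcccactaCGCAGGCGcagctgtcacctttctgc
A match is a description of letters and not of binding. RefSeq promoters of 300 bases, 250 before and 50 after a start, were found for 9293 of the tested genes. On either strand the receptor element was in 0.839% of them, in 1.04% of the 772 called higher by over 1.5-fold and in 0.688% of the 436 called lower by that much. The NRF1 core was in 19.9% of all, in 18.1% of those higher and in 16.1% of those lower. By gene list it was in 10 of 15 ATP synthase promoters, 6 of 11 of complexes II and III, 9 of 32 of complex I, 12 of 41 of the mitochondrial ribosome and 1 of 16 of complex IV.

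The listed genes of the respiratory chain rose almost without exception, and by much the same factor from complex to complex. Subunits outside these lists are not covered by the counts. All 36 tested subunits of complex I, which takes electrons from NADH, were higher in mTg, against 22.4% of all genes, with a median log2 fold change of 0.96 (range 0.31 to 1.35). In 33 of them the groups did not overlap. Complexes II and III had 16 of 16 members higher (median 1.06), complex IV, cytochrome c oxidase, 20 of 21 (median 0.90) and the ATP synthase 15 of 16 (median 1.02). The 2 members that were not called were the complex IV assembly factor *Surf1* (0.04, 95% interval -0.11 to 0.19) and *Atp5g2* (0.12, 95% interval -0.07 to 0.31), 1 of 3 genes for the same subunit c protein, whose reads can be shared with similar copies. The latter was called without mTg replicate 2 (0.20). Complex I subunits together took 1.98% ± 0.0857 of the summed FPKM in controls and 3.87% ± 0.193 in mTg (SD, n = 5). The ATP synthase took 1.77% ± 0.0448 and 3.84% ± 0.155.

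*Ndufb10*, an accessory complex I subunit with its promoter above, was 368, 337, 352, 377 and 417 FPKM in the control libraries and 1062, 916, 1051, 834 and 887 FPKM in the mTg libraries (log2 fold change 1.35 ± 0.08, adjusted p = 5.29e-08). *Sdhb*, the iron-sulfur subunit of complex II that also serves the TCA cycle, was 428, 401, 418, 438 and 416 FPKM in the control libraries and 1120.3, 1006, 1092, 1019 and 1079 FPKM in the mTg libraries (log2 fold change 1.34 ± 0.06, adjusted p = 3.22e-09). The lowest mTg library of each exceeded the highest control by a wide margin. *Cox4i1*, a complex IV subunit, was 726, 658, 729.9, 780.1 and 869 FPKM in the control libraries and 2023, 1611, 2024, 1742 and 1696 FPKM in the mTg libraries (log2 fold change 1.27 ± 0.09, adjusted p = 1.54e-07). *Atp5b*, the catalytic β subunit of the ATP synthase, was 1708, 1667, 1719, 1795 and 1844 FPKM in the control libraries and 4422, 3879, 4256, 3957 and 3853 FPKM in the mTg libraries (log2 fold change 1.22 ± 0.07, adjusted p = 1.88e-08). Every mTg library held more than 2 times the control mean of *Atp5b*, 1747 FPKM. Of the 3 subunit c genes, *Atp5g3* (from 686 to 1977 FPKM, 1.52 ± 0.10) and *Atp5g1* (from 286 to 798 FPKM, 1.48 ± 0.09) rose most in the complex. Where complex IV has a muscle and a ubiquitous form of a subunit, both rose but not equally: *Cox6a1* rose more than the muscle form *Cox6a2* (log2 ratio -5.12 ± 0.11 in controls and -4.59 ± 0.14 in mTg, SD; exact permutation adjusted p = 0.0141), while *Cox7a2* rose less than the muscle form *Cox7a1* (-1.89 ± 0.05 in controls and -2.13 ± 0.08 in mTg; adjusted p = 0.0141, same exact permutation test).

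**Figure D2:**
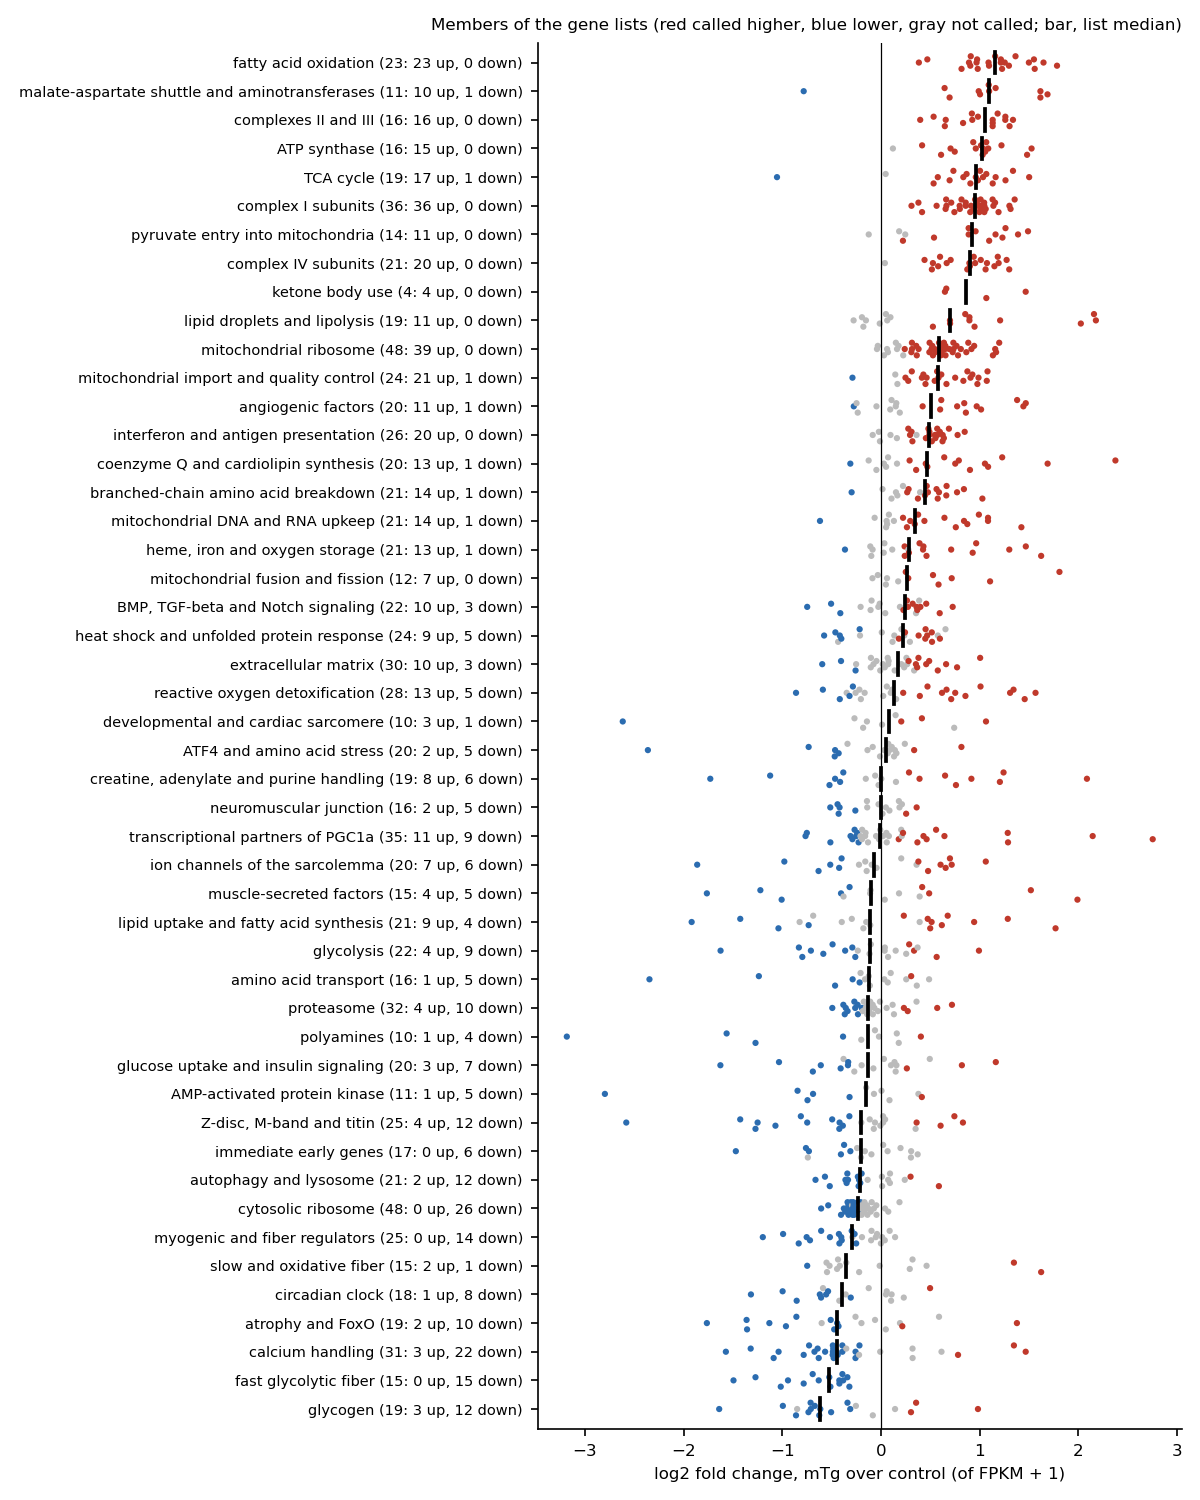
Log2 fold change of mTg over control (horizontal axis, log2 of FPKM + 1) of each tested member of 48 gene lists, ordered by list median (black bar). The label gives the number of members tested, called higher (red) and called lower (blue). Respiratory, fatty acid oxidation and TCA cycle lists lie to the right of 0, and glycogen, fast fiber and calcium handling lists to the left.

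Genes that feed the chain rose as well. Of 19 TCA cycle genes 17 rose and 1 fell (2 fell without control replicate 5 and mTg replicates 1 and 2; median 0.96), of 23 fatty acid oxidation genes all 23 (median 1.16, range 0.38 to 1.78), of 14 genes for pyruvate entry into mitochondria 11 (10, with 1 lower, without those libraries; median 0.92) and of 4 ketone body genes all 4 (median 0.86). *Acadvl*, the very long-chain acyl-CoA dehydrogenase that opens β-oxidation, was 184, 169.6, 185, 179.6 and 196 FPKM in the control libraries and 736, 627, 604, 603 and 594 FPKM in the mTg libraries (log2 fold change 1.78 ± 0.07, adjusted p = 2.24e-09). *Slc25a20*, the carnitine-acylcarnitine carrier, rose from 42.9 to 129 FPKM (1.56 ± 0.08), and *Acadl* and *Acaa2*, which start and end a round of β-oxidation, rose by 1.55 ± 0.08 and 1.65 ± 0.07. *Dlst*, the E2 subunit of the 2-oxoglutarate dehydrogenase complex, was 137, 132, 127, 133 and 143 FPKM in the control libraries and 423, 399, 362, 355 and 373 FPKM in the mTg libraries (log2 fold change 1.5 ± 0.06, adjusted p = 3.22e-09). Against the direction of the list, *Pcx*, pyruvate carboxylase, which refills the cycle from pyruvate, fell from 38.3 to 17.9 FPKM (log2 fold change -1.05 ± 0.15, adjusted p = 9.07e-05), with every mTg library below every control. *Idh2*, the mitochondrial NADP isocitrate dehydrogenase, was the one member not called (158 ± 34.5 FPKM in controls and 162 ± 29.8 in mTg, SD, n = 5; 95% interval -0.31 to 0.41; called lower, at -0.23, without control replicate 5 and mTg replicates 1 and 2), whereas its cytosolic counterpart *Idh1* rose from 11.02 to 23.6 FPKM (1.03 ± 0.08). The log2 ratio of *Idh2* to *Idh1* was 3.80 ± 0.47 in controls and 2.76 ± 0.34 in mTg (SD, exact permutation adjusted p = 0.0267).

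Subunits of the pyruvate dehydrogenase complex rose: *Dlat* (from 57.1 to 162 FPKM, 1.49 ± 0.07), *Pdhx* (1.16 ± 0.06), *Dld* (1.26 ± 0.09), *Pdhb* (1.1 ± 0.07) and *Pdha1* (0.89 ± 0.06). *Mpc2*, a subunit of the mitochondrial pyruvate carrier, rose from 206 to 543 FPKM (1.39 ± 0.11). The kinase that inhibits the dehydrogenase, *Pdk4*, rose too and was 187, 112, 179.5, 126 and 189.8 FPKM in the control libraries and 333, 443, 416, 258 and 410.2 FPKM in the mTg libraries (log2 fold change 1.23 ± 0.17, adjusted p = 7.69e-05). The mTg libraries of *Pdk4* spread widely but did not overlap the controls. *Oxct1*, the rate-limiting enzyme of ketone body use, rose from 188 to 395 FPKM (1.07 ± 0.06).

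The malate-aspartate shuttle, which carries the electrons of cytosolic NADH into mitochondria, rose in both compartments, with 10 of 11 genes of shuttle enzymes and aminotransferases called higher (median 1.09). *Got1*, the cytosolic aspartate aminotransferase, was 214, 219, 225, 226 and 219 FPKM in the control libraries and 699, 729, 733, 685 and 718 FPKM in the mTg libraries (log2 fold change 1.69 ± 0.05, adjusted p = 3.69e-10). *Got2*, its mitochondrial partner, rose by 1.61 ± 0.06 and *Mdh1*, the cytosolic malate dehydrogenase, by 1.61 ± 0.07. Mitochondrial *Mdh2* rose less than *Mdh1* (log2 ratio 0.93 ± 0.06 in controls and 0.47 ± 0.02 in mTg, SD; exact permutation adjusted p = 0.0141), and the ratio of *Got2* to *Got1* was not separated (-0.66 ± 0.07 in controls and -0.73 ± 0.07 in mTg; adjusted p = 0.254, exact permutation test). The alternative route for cytosolic NADH went the other way: *Gpd2*, the mitochondrial glycerol phosphate dehydrogenase, fell from 59.3 to 35.8 FPKM (log2 fold change -0.71 ± 0.07, adjusted p = 2.65e-06) and its cytosolic partner *Gpd1* from 349 to 272 FPKM (-0.36 ± 0.07). The alanine aminotransferases parted as well. *Gpt2*, in mitochondria, was 89.0, 91.7, 111, 129.5 and 116 FPKM in the control libraries and 56.0, 60.5, 66.2, 66.9 and 58.2 FPKM in the mTg libraries and fell (log2 fold change -0.78 ± 0.10, adjusted p = 3.43e-05). *Gpt*, in the cytosol, was 15.1, 17.8, 13.4, 15.9 and 16.4 FPKM in the control libraries and 39.8, 29.8, 31.3, 30.0 and 30.6 FPKM in the mTg libraries and rose (log2 fold change 0.99 ± 0.09, adjusted p = 1.70e-06). In the log2 ratio of these 2 genes, 2.76 ± 0.30 in controls and 0.94 ± 0.26 in mTg, the groups were far apart (SD; exact permutation adjusted p = 0.0141).

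Genes of the machinery that makes mitochondria had smaller list medians than those of their enzymes. Of 48 mitochondrial ribosomal protein genes 39 rose and 9 were not called (median 0.59, range -0.04 to 1.20), with *Mrpl34* (1.20 ± 0.10) and *Mrps35* (1.16 ± 0.07) among the larger increases and *Mrpl22* (-0.04, 95% interval -0.20 to 0.12) and *Mrps12* (-0.03, 95% interval -0.30 to 0.24) among those not called. Of 21 genes for mitochondrial DNA and RNA upkeep 14 rose (median 0.34). The translation factors *Tufm* (from 42.7 to 91.7 FPKM, 1.08 ± 0.06) and *Gfm1* (from 57.4 to 123 FPKM, 1.08 ± 0.06) and the termination factor family member *Mterf2* (from 10.8 to 30.6 FPKM, 1.42 ± 0.07) were among them. The polymerases themselves were not called: *Polg*, of DNA, at 0.05 (95% interval -0.08 to 0.18), and *Polrmt*, of RNA, at 0.06 (95% interval -0.07 to 0.19). *Mgme1*, a mitochondrial DNA exonuclease, fell from 6.01 to 3.57 FPKM (log2 fold change -0.62 ± 0.06, adjusted p = 4.26e-06). Import and quality control genes rose in 21 of 24 (median 0.58), including the chaperonin *Hspd1* (0.87 ± 0.07), the prohibitin *Phb* (1.07 ± 0.07) and the cristae organizers *Immt* (0.91 ± 0.07) and *Chchd3* (0.98 ± 0.06). *Pmpca*, the α subunit of the protease that cleaves import signals, fell by 0.29 ± 0.05. Among 12 fusion and fission genes 7 rose and none fell (1 fell without control replicate 5 and mTg replicates 1 and 2; median 0.26). *Mtfp1*, an inner membrane protein linked to fission, was 38.6, 35.4, 34.7, 38.4 and 40.5 FPKM in the control libraries and 159, 116, 139, 124 and 134 FPKM in the mTg libraries (log2 fold change 1.81 ± 0.08, adjusted p = 3.88e-09). The fusion GTPase *Mfn1* rose from 60.4 to 132 FPKM (1.1 ± 0.09). The fission adaptors *Fis1* (-0.03, 95% interval -0.24 to 0.18) and *Mff* (0.05, 95% interval -0.08 to 0.18) were not called. Coenzyme Q and cardiolipin synthesis had 13 of 20 genes higher and 1 lower (2 without control replicate 5 and mTg replicates 1 and 2). *Cds1*, a CDP-diacylglycerol synthase, was 0.631, 0.554, 0.718, 0.758 and 0.987 FPKM in the control libraries and 8.42, 8.25, 8.03, 6.80 and 8.29 FPKM in the mTg libraries (log2 fold change 2.37 ± 0.08, adjusted p = 7.82e-10). *Pdss1*, which starts the coenzyme Q tail, rose from 5.25 to 19.2 FPKM (1.69 ± 0.09), and *Coq5*, a ring methyltransferase, from 54.9 to 129.9 FPKM (1.23 ± 0.06). *Crls1*, cardiolipin synthase, was not called (0.07, 95% interval -0.09 to 0.24).

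Branched-chain amino acid breakdown rose in 14 of 21 genes (median 0.45), among them the dehydrogenase subunit *Bckdha* (from 113 to 194 FPKM, 0.77 ± 0.06) and the valine pathway enzymes *Hibch* (1.03 ± 0.08) and *Hibadh* (0.84 ± 0.06). The E1 subunit *Bckdhb* was not called (0.01, 95% interval -0.15 to 0.18).

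Fatty acid uptake and lipid droplet genes rose while several lipogenic genes fell. *Fabp3*, the heart and muscle fatty acid binding protein, was 321, 228, 273, 247 and 301 FPKM in the control libraries and 1064, 1120.0, 859.6, 749 and 896 FPKM in the mTg libraries (log2 fold change 1.77 ± 0.12, adjusted p = 9.79e-08). *Cd36*, the fatty acid translocase, rose from 87.2 to 216 FPKM (1.28 ± 0.11), the transporter *Slc27a1* from 33.2 to 64.8 FPKM (0.94 ± 0.10) and lipoprotein lipase, *Lpl*, from 214 to 331 FPKM (0.62 ± 0.11). *Srebf1*, the transcription factor of fatty acid synthesis, was 28.8, 26.8, 20.6, 27.0 and 23.1 FPKM in the control libraries and 4.51, 4.38, 8.56, 7.08 and 5.86 FPKM in the mTg libraries (log2 fold change -1.92 ± 0.15, adjusted p = 3.48e-07). *Me1*, the malic enzyme that supplies NADPH, fell from 70.8 to 25.8 FPKM (-1.43 ± 0.07) and the desaturase *Scd2* from 12.3 to 5.45 FPKM (-1.04 ± 0.13). *Fasn* (-0.69, 95% interval -1.67 to 0.29), fatty acid synthase, which adipocytes in the tissue also express strongly, did not pass the test. In all 9 of 21 genes of this list rose and 4 fell. Without control replicate 5 these counts were 10 and 8.

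Lipid droplet genes were called higher in 11 of 19 and lower in none (median 0.70). *Plin5*, the perilipin that ties droplets to mitochondria, was 14.2, 10.7, 11.3, 9.85 and 15.8 FPKM in the control libraries and 64.9, 59.1, 63.1, 53.2 and 53.6 FPKM in the mTg libraries (log2 fold change 2.18 ± 0.12, adjusted p = 1.39e-08). *Pnpla2*, adipose triglyceride lipase, and its activator *Abhd5* rose by 0.90 ± 0.07 and 0.70 ± 0.07. *Nceh1*, a neutral cholesterol ester hydrolase, rose from 6.86 to 33.4 FPKM (2.16 ± 0.15). The other perilipins in the list, *Plin2* (-0.15, 95% interval -0.32 to 0.01), *Plin3* (-0.19) and *Plin4* (0.05), were not called.

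**Figure D3:**
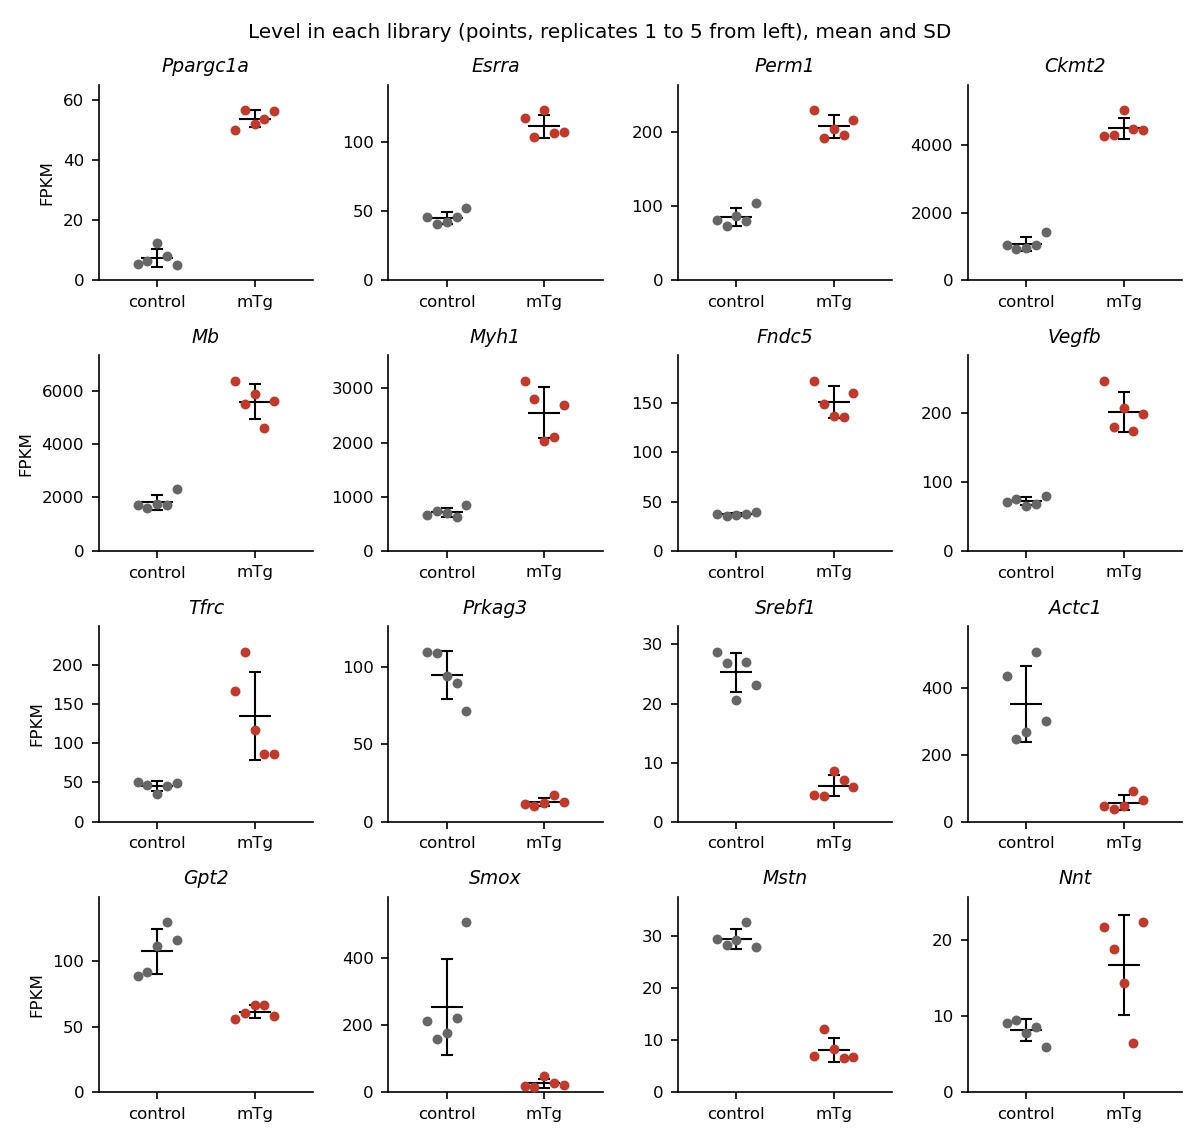
FPKM in each library of 16 genes named in the text (1 panel per gene, vertical axes in FPKM from 0). Points are libraries, replicates 1 to 5 from left to right, gray for control and red for mTg, with the mean and SD of each group. The groups do not overlap in any panel but that of *Nnt*.

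Genes of glycolysis and glycogen use fell more often than they rose. Of 22 glycolytic genes 9 fell and 4 rose (median -0.11). *Ldha*, the muscle lactate dehydrogenase, was 1405, 1281, 1413, 1481 and 1691 FPKM in the control libraries and 901, 796, 859.8, 809.8 and 712 FPKM in the mTg libraries (log2 fold change -0.83 ± 0.09, adjusted p = 4.35e-06). *Ldhb*, the heart form, was 139, 129, 131, 135 and 109 FPKM in the control libraries and 309, 224, 228, 238 and 291 FPKM in the mTg libraries (log2 fold change 0.99 ± 0.10, adjusted p = 3.74e-06). The ratio of heart to muscle form was thus 3.55-fold higher in mTg (log2 ratio -3.50 ± 0.26 in controls and -1.67 ± 0.25 in mTg, SD; exact permutation adjusted p = 0.0141). *Pkm* (from 1431 to 953 FPKM, -0.58 ± 0.08), *Aldoa* (-0.49 ± 0.09) and the muscle fructose bisphosphatase *Fbp2* (-0.80 ± 0.13) fell, while *Gapdh* (0.04, 95% interval -0.15 to 0.22) and *Pgam2* (0.04, 95% interval -0.15 to 0.23) were not called. Lactate transport followed the same division. *Slc16a1*, the transporter MCT1 of oxidative fibers, was 8.31, 7.69, 8.70, 7.66 and 12.9 FPKM in the control libraries and 27.4, 29.6, 24.0, 24.9 and 26.0 FPKM in the mTg libraries (log2 fold change 1.47 ± 0.12, adjusted p = 4.75e-07). *Slc16a3*, MCT4, the exporter of glycolytic fibers, was 117, 115, 115, 148 and 176 FPKM in the control libraries and 61.8, 60.3, 86.8, 60.5 and 50.03 FPKM in the mTg libraries (log2 fold change -1.06 ± 0.15, adjusted p = 6.22e-05). The log2 ratio of the pair was -3.88 ± 0.22 in controls and -1.25 ± 0.36 in mTg (SD; exact permutation adjusted p = 0.0141).

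Glycogen genes had the lowest list median, -0.62, with 12 of 19 lower and 3 higher. *Pygm*, muscle glycogen phosphorylase, was 3729, 3529.9, 3721, 3739 and 4059.8 FPKM in the control libraries and 2059.9, 1880.1, 1829, 1867 and 1788 FPKM in the mTg libraries (log2 fold change -0.99 ± 0.07, adjusted p = 9.57e-08). Phosphorylase kinase, which activates it, fell in 3 subunits: *Phkb* was 133, 128, 135, 129.7 and 144 FPKM in the control libraries and 45.2, 49.1, 39.2, 38.0 and 40.7 FPKM in the mTg libraries (log2 fold change -1.64 ± 0.07, adjusted p = 3.76e-09), and *Phka1* and *Phkg1* fell by 0.86 ± 0.08 and 0.71 ± 0.06. *Gyg*, glycogenin, the primer of new glycogen, fell by 0.71 ± 0.05. The synthesis enzymes *Gys1* (from 190.4 to 236 FPKM, 0.30 ± 0.07) and *Gbe1*, the branching enzyme (from 22.2 to 44.8 FPKM, 0.98 ± 0.09), rose.

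Insulin and glucose uptake genes fell in 7 of 20 (35.0%, against 23.1% of all genes) and rose in 3. *Slc2a4*, the insulin-responsive transporter GLUT4, was 239, 229.9, 242, 263 and 284 FPKM in the control libraries and 185, 187, 222, 202 and 200.2 FPKM in the mTg libraries (log2 fold change -0.33 ± 0.07, adjusted p = 0.00256), a modest fall without overlap. *Slc2a3*, GLUT3, fell from 3.59 to 0.485 FPKM (-1.63 ± 0.08). *Akt2* fell by 0.34 ± 0.06 and *Akt1* rose by 0.82 ± 0.09. *Tbc1d1*, a Rab GTPase-activating protein that restrains GLUT4 traffic in muscle, rose from 9.91 to 22.0 FPKM (1.16 ± 0.22, groups overlapping).

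AMP-activated protein kinase, the energy sensor that phosphorylates PGC1α, changed most in its fast-fiber subunit. *Prkag3*, the γ3 subunit of glycolytic muscle, was 109.7, 109, 94.1, 89.6 and 71.4 FPKM in the control libraries and 11.4, 10.3, 12.2, 17.3 and 12.8 FPKM in the mTg libraries (log2 fold change -2.80 ± 0.14, adjusted p = 6.53e-09). *Prkag1*, the widely expressed γ1, was 38.8, 36.6, 37.3, 42.7 and 39.9 FPKM in the control libraries and 54.3, 48.1, 55.2, 51.0 and 53.0 FPKM in the mTg libraries (log2 fold change 0.41 ± 0.06, adjusted p = 1.35e-04). Per length, the γ1 message was below γ3 in every control and above it in every mTg library, a 9.88-fold change of the ratio (log2 ratio -1.26 ± 0.30 in controls and 2.04 ± 0.29 in mTg, SD; exact permutation adjusted p = 0.0141). *Prkab2*, the muscle β subunit, fell from 153 to 91.6 FPKM (-0.74 ± 0.09), and the β1 subunit *Prkab1* was not called (0.09, 95% interval -0.12 to 0.29). The α1 catalytic subunit, *Prkaa1*, was not called (0.00, 95% interval -0.19 to 0.20). *Flcn*, folliculin, a negative regulator of this kinase and of PGC1α in muscle, fell from 23.7 to 12.7 FPKM (-0.85 ± 0.09).

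The mitochondrial creatine kinase, *Ckmt2*, was 1037, 921, 953, 1034 and 1426 FPKM in the control libraries and 4284, 4302, 5054, 4482 and 4448 FPKM in the mTg libraries (log2 fold change 2.09 ± 0.11, adjusted p = 1.23e-08), the reverse of *Ckm* above, and the log2 ratio of the 2 kinases was -4.24 ± 0.20 in controls and -1.63 ± 0.11 in mTg (SD; exact permutation adjusted p = 0.0141). The mitochondrial adenylate kinases *Ak3* (1.24 ± 0.08) and *Ak4* (1.20 ± 0.14) and the ADP/ATP carrier *Slc25a4* (from 3647 to 6178 FPKM, 0.76 ± 0.09) rose. Cytosolic *Ak1* was not called (0.00, 95% interval -0.15 to 0.16). *Ampd1*, the AMP deaminase of fast muscle, was 725, 639, 644, 613 and 615 FPKM in the control libraries and 285, 299, 282, 305 and 310.2 FPKM in the mTg libraries (log2 fold change -1.12 ± 0.06, adjusted p = 2.47e-08). *Gamt*, the last enzyme of creatine synthesis, fell from 12.1 to 3.02 FPKM (-1.73 ± 0.14). Over the whole list of 19 genes, 8 rose and 6 fell, and their summed share of FPKM was 5.80% ± 0.0950 in controls and 5.81% ± 0.185 in mTg (SD, n = 5).

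Polyamine genes held the largest decrease among the genes called. *Smox*, spermine oxidase, was 211, 158, 178, 222 and 507 FPKM in the control libraries and 18.1, 16.6, 49.0, 28.1 and 21.6 FPKM in the mTg libraries (log2 fold change -3.18 ± 0.32, adjusted p = 3.21e-06). Control replicate 5 was more than 2 times as high as any other control, and even the lowest control was above 3 times the highest mTg library. *Sms*, spermine synthase, which makes the substrate of *Smox*, fell from 28.7 to 8.997 FPKM (-1.56 ± 0.08), and *Odc1*, ornithine decarboxylase, the first enzyme of the path, fell from 50.1 to 18.7 FPKM (-1.27 ± 0.21). Of 10 genes in the list 4 fell and 1 rose (2 without control replicate 5). The intermediate step, *Srm*, was not called (-0.02, 95% interval -0.20 to 0.16).

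All 15 fast glycolytic fiber genes fell, against 23.1% of all genes (median -0.52, range -1.49 to -0.32), and their summed share of FPKM was 26.1% ± 0.689 in controls and 18.04% ± 0.688 in mTg (SD, n = 5). *Mylk2*, the kinase of the fast regulatory light chain, was 521, 534, 694, 619 and 624 FPKM in the control libraries and 264, 197, 201, 198 and 200.3 FPKM in the mTg libraries (log2 fold change -1.49 ± 0.10, adjusted p = 9.57e-08). *Actn3*, the α-actinin of fast glycolytic fibers, was 3629, 3602, 3694, 3708 and 3126 FPKM in the control libraries and 1610.1, 1377, 1502, 1579.6 and 1294 FPKM in the mTg libraries (log2 fold change -1.27 ± 0.08, adjusted p = 6.00e-08). Its partner *Actn2* rose from 274 to 457 FPKM (0.74 ± 0.11), so that the log2 ratio of *Actn2* to *Actn3* was -3.71 ± 0.29 in controls and -1.69 ± 0.19 in mTg (SD; exact permutation adjusted p = 0.0141). *Pvalb*, parvalbumin, the calcium buffer of the fastest fibers, was 13251, 11249, 12499, 13820.1 and 13339 FPKM in the control libraries and 8354, 6969.9, 8292, 7104 and 6624 FPKM in the mTg libraries (log2 fold change -0.78 ± 0.09, adjusted p = 1.39e-05). *Tpm1* fell from 6190.2 to 3222 FPKM (-0.94 ± 0.07) and the light chain gene *Myl1* from 6994 to 3432 FPKM (-1.02 ± 0.11).

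Among 15 slow and oxidative fiber genes 2 rose, 1 fell and 12 were not called. Myoglobin, *Mb*, the oxygen store, was 1728, 1605, 1739, 1706 and 2324 FPKM in the control libraries and 6365, 5505, 5874, 4595 and 5596 FPKM in the mTg libraries (log2 fold change 1.62 ± 0.11, adjusted p = 1.03e-07). *Casq2*, the calsequestrin of slow and cardiac muscle, rose from 15.4 to 41.0 FPKM (1.35 ± 0.13), and against the fast form its log2 ratio was -7.19 ± 0.16 in controls and -5.16 ± 0.27 in mTg (SD; exact permutation adjusted p = 0.0141). The sarcomeric genes of slow fibers varied widely between libraries of both groups. *Myh7*, slow myosin heavy chain I, was 49.2, 15.5, 43.2, 47.1 and 23.7 FPKM in the control libraries and 54.2, 5.86, 20.3, 31.3 and 24.1 FPKM in the mTg libraries (-0.55, 95% interval -1.55 to 0.45). *Tnni1*, slow troponin I, was 44.7, 13.8, 38.8, 46.2 and 25.2 FPKM in the control libraries and 39.0, 6.32, 25.1, 28.6 and 20.6 FPKM in the mTg libraries (-0.55, 95% interval -1.45 to 0.34). In both genes mTg replicate 2 was the lowest of its group and control replicate 2 the lowest of the controls, as it was for *Myl2* (207, 71.9, 157, 222 and 106 FPKM in controls, 189, 31.2, 103, 124 and 117 in mTg). The ratios of slow to fast troponin I, troponin T, troponin C, regulatory light chain and calcium pump were not separated (exact permutation adjusted p from 0.884 to 0.952). The spread between libraries was wide, so these values do not show that the ratios stayed level. With mTg replicate 2 left out but the low control replicate 2 kept, the log2 fold change of *Tnni1* was -0.16 and that of *Myl2* -0.12. No fit left out replicate 2 of both groups, so these 2 values are one-sided. Without control replicate 5 and mTg replicates 1 and 2, 4 genes of the list rose and 1 fell. *Mybpc1*, slow myosin-binding protein C, rose by 0.36 ± 0.09 while *Mybpc2*, the fast form, fell by 0.32 ± 0.08, with a log2 ratio of -2.13 ± 0.08 in controls and -1.45 ± 0.18 in mTg (SD; exact permutation adjusted p = 0.0141). *Actc1*, cardiac actin, which is expressed in developing and regenerating muscle, was 437, 249, 269, 511 and 303 FPKM in the control libraries and 46.2, 37.8, 47.1, 92.2 and 63.7 FPKM in the mTg libraries (log2 fold change -2.62 ± 0.24, adjusted p = 1.46e-06), and it fell more than skeletal actin, *Acta1* (-0.60 ± 0.08; log2 ratio -6.18 ± 0.41 in controls and -8.22 ± 0.49 in mTg, SD; exact permutation adjusted p = 0.0141).

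**Figure D4:**
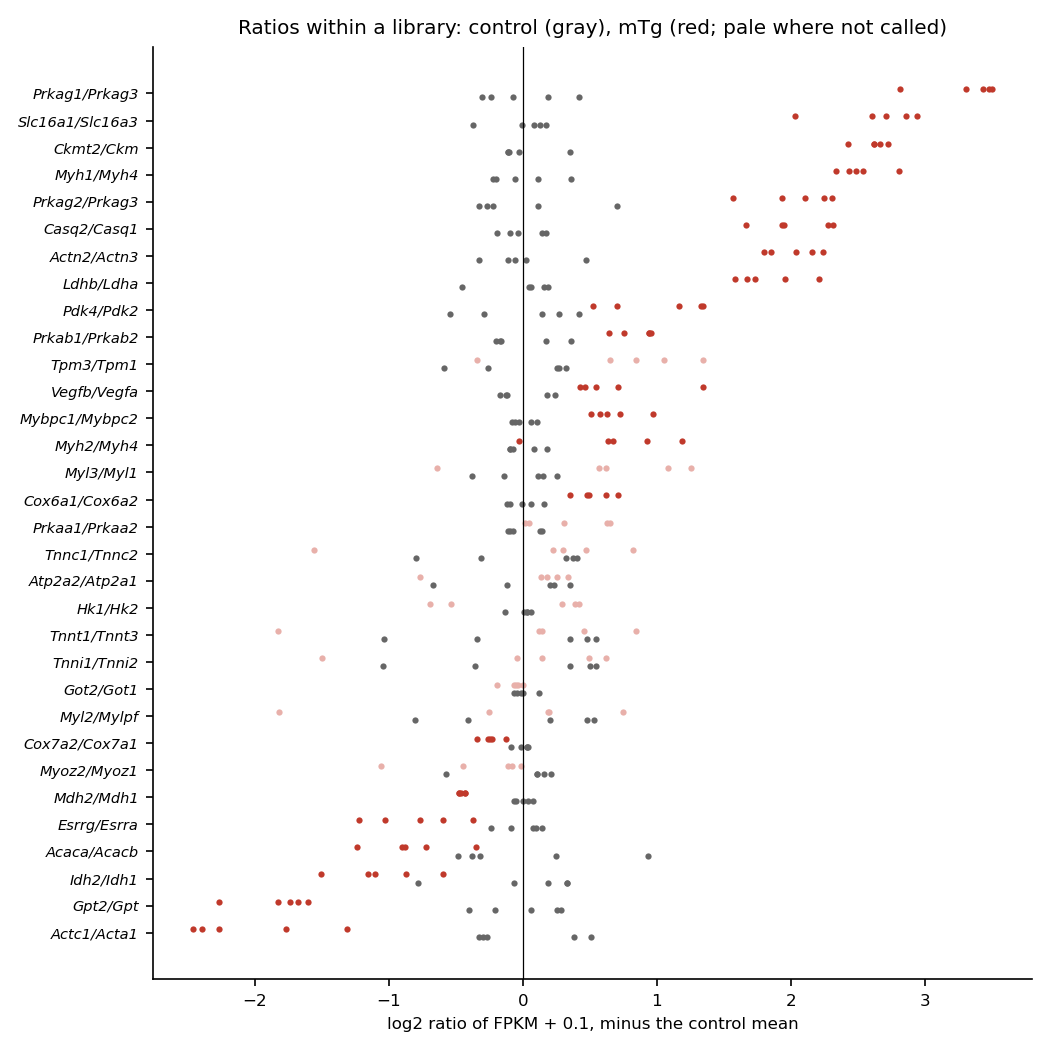
Log2 ratio of 2 genes in the same library (FPKM + 0.1 of each; horizontal axis, minus the mean of the controls) for 32 pairs, 1 point per library. Gray points are controls, red points mTg libraries of the 21 pairs called at an adjusted p under 0.05 (exact two-sided permutation test), pale red points mTg libraries of the other 11, among which are the slow-to-fast ratios of troponins I, T and C.

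The adult fast myosin heavy chains, whose genes lie side by side on chromosome 11, changed unequally. *Myh1*, IIx, was 658, 739, 706, 625 and 839.6 FPKM in the control libraries and 3141, 2802, 2023, 2107 and 2697 FPKM in the mTg libraries (log2 fold change 1.83 ± 0.12, adjusted p = 9.95e-08). *Myh4*, IIb, was 10549.7, 9403, 10127, 9871 and 8991 FPKM in the control libraries and 7713, 7155, 4806, 5737 and 5317 FPKM in the mTg libraries (log2 fold change -0.69 ± 0.12, adjusted p = 4.58e-04). *Myh2*, IIa, was not called (294 ± 38.0 and 301 ± 97.1 FPKM, SD, n = 5; 95% interval -0.40 to 0.37). The log2 ratio of *Myh1* to *Myh4* was -3.78 ± 0.24 in controls and -1.26 ± 0.18 in mTg (SD; exact permutation adjusted p = 0.0141). These genes are near-identical over long stretches, and how reads that match several of them were counted is not stated in the sources. The 250 bases before each start (RefSeq, GRCm38.p6; *Myh1* chr11:67199852-67200101 and *Myh4* chr11:67237562-67237811, plus strand) are shown because the genes changed in opposite directions and yet both windows hold the same 2 matches to the MEF2 core, CTANNNNTA on either strand, in capitals.
Myh1: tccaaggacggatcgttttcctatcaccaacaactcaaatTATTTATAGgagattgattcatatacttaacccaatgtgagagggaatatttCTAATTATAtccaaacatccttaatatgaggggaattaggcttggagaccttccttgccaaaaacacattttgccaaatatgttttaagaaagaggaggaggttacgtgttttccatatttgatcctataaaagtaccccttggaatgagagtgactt
Myh4: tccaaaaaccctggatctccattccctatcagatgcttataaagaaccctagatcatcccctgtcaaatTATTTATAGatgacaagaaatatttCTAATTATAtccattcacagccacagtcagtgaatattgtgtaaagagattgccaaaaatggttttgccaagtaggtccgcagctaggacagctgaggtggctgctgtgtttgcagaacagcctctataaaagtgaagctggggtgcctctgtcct
The longest run the 2 windows share, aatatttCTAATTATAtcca, is 20 bases long and starts 165 bases before the start of *Myh1* and 163 before that of *Myh4*. The MEF2 core was in 17.5% of all tested promoters, in 15.4% of those of genes called higher by over 1.5-fold and in 21.6% of those called lower by that much.

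Of 25 Z-disc, M-band and titin genes 12 fell and 4 rose. *Myoz3*, the calsarcin of fast fibers, fell from 99.4 to 36.5 FPKM (log2 fold change -1.43 ± 0.09, adjusted p = 5.29e-08), the LIM proteins *Pdlim3* and *Pdlim7* by 1.25 ± 0.10 and 1.07 ± 0.11, and titin, *Ttn*, by 0.81 ± 0.08. *Myom3*, a myomesin of slow and intermediate fibers, rose from 11.04 to 20.5 FPKM (0.83 ± 0.11), and *Myot*, myotilin, from 622 to 945 FPKM (0.60 ± 0.09). Of 31 calcium handling genes 22 fell and 3 rose (median -0.45). *Cacng1*, the γ1 subunit of the voltage sensor, was 199.8, 195, 217, 223 and 195 FPKM in the control libraries and 76.7, 69.8, 65.0, 69.1 and 62.9 FPKM in the mTg libraries (log2 fold change -1.57 ± 0.07, adjusted p = 3.22e-09). *Camk2a*, a calcium and calmodulin kinase, fell from 127 to 50.5 FPKM (-1.32 ± 0.05), the triad protein *Jph2* from 265 to 125 FPKM (-1.09 ± 0.08) and the calmodulin gene *Calm3*, whose protein other genes encode as well, by 1.04 ± 0.07. *Rcan2*, an inhibitor of calcineurin, rose from 19.9 to 56.4 FPKM (1.47 ± 0.11). The release channel *Ryr1* was not called (-0.22, 95% interval -0.46 to 0.02), but it was called lower without mTg replicate 1 (-0.33).

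In the surface membrane, the β subunits of the sodium pump moved in opposite directions. *Atp1b2* was 147, 151, 140.1, 152 and 134 FPKM in the control libraries and 32.5, 34.3, 44.6, 40.6 and 45.2 FPKM in the mTg libraries (log2 fold change -1.86 ± 0.09, adjusted p = 7.08e-09). *Atp1b1* was 63.9, 59.8, 72.2, 65.2 and 68.7 FPKM in the control libraries and 162, 160.2, 114, 116 and 149 FPKM in the mTg libraries (log2 fold change 1.06 ± 0.11, adjusted p = 3.39e-06). *Kcnj11* and *Abcc9*, which form the ATP-sensitive potassium channel, fell by 0.51 ± 0.07 and 0.63 ± 0.09. Of 20 channel and pump genes 7 rose (35%, against 22.4% of all genes) and 6 fell (30%, against 23.1%).

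Of the 25 tested regulators of myogenesis and fiber type 14 fell and none rose (median -0.29). *Myf6*, MRF4, the myogenic factor of mature fibers, was 59.4, 62.8, 70.1, 73.4 and 74.6 FPKM in the control libraries and 22.6, 25.2, 34.6, 31.2 and 33.2 FPKM in the mTg libraries (log2 fold change -1.20 ± 0.11, adjusted p = 2.09e-06). *Eya1*, a transcriptional cofactor that drives fast fiber genes, fell from 8.33 to 3.70 FPKM (-0.99 ± 0.08). *Sox6*, a repressor of slow fiber genes, fell by 0.75 ± 0.08, *Maf*, a large Maf factor of IIb fibers, by 0.83 ± 0.14 and *Nfatc2* by 0.72 ± 0.08. *Myod1* was not called (-0.10, 95% interval -0.51 to 0.32). Neuromuscular junction genes were lower in 5 of 16 (31.3%, against 23.1% of all genes) and higher in 2 (12.5%, against 22.4%). The number higher was 4 without control replicate 5 and mTg replicates 1 and 2, and 1 without control replicate 5 alone. Those lower included acetylcholinesterase, *Ache* (from 23.7 to 17.2 FPKM, -0.44 ± 0.07), the adult receptor subunit *Chrne* (-0.43 ± 0.09) and the receptor-clustering *Rapsn* (-0.42 ± 0.11). Circadian clock genes fell in 8 of 18 and rose in 1, but for most of those the groups overlapped, and the time of day of each harvest is not in the labels. *Rora*, a nuclear receptor of the clock, fell without overlap (from 9.25 to 4.70 FPKM, -0.85 ± 0.10).

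Of 19 atrophy and FoxO genes 10 fell and 2 rose (median -0.44). *Mstn*, myostatin, the secreted brake on muscle growth, was 29.4, 28.2, 29.1, 32.5 and 27.7 FPKM in the control libraries and 7.06, 12.1, 8.34, 6.51 and 6.69 FPKM in the mTg libraries (log2 fold change -1.76 ± 0.13, adjusted p = 2.07e-07). *Trim63*, the ubiquitin ligase MuRF1, was 159.8, 174, 198, 175 and 174 FPKM in the control libraries and 88.5, 73.2, 83.3, 75.3 and 78.7 FPKM in the mTg libraries (log2 fold change -1.13 ± 0.07, adjusted p = 6.14e-08), and *Fbxo32*, atrogin-1, fell from 62.0 to 34.4 FPKM (-0.86 ± 0.18, groups overlapping). Autophagy and lysosome genes fell in 12 of 21 and rose in 2 (4 without control replicate 5 and mTg replicates 1 and 2), with *Ulk2* (from 31.2 to 19.4 FPKM, -0.66 ± 0.08), the cargo adaptor *Sqstm1* (from 288 to 193 FPKM, -0.57 ± 0.08) and the mitophagy receptor *Bnip3* (-0.52 ± 0.10) lower and the protease *Ctsb* higher (from 84.6 to 127 FPKM, 0.59 ± 0.05). Proteasome genes were lower in 10 of 32 (31.3%, against 23.1% of all genes) and higher in 4. *Psmd4*, a ubiquitin receptor of the regulatory particle, fell from 110.1 to 77.9 FPKM (-0.49 ± 0.08), and *Psmb10* and *Psmb8*, subunits of the immunoproteasome, rose by 0.72 ± 0.12 and 0.57 ± 0.12, as did the constitutive *Psmb2* by 0.23 ± 0.06. Cytosolic ribosomal protein genes fell in 26 of 48 and rose in none (median -0.23), for example *Rpl4* (from 406 to 279.9 FPKM, -0.53 ± 0.06) and *Rps20* (from 264 to 174 FPKM, -0.61 ± 0.10). Many of these have processed copies in the genome, and how shared reads were counted is not stated in the sources.

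*Chac1*, a glutathione-degrading target of ATF4, was 42.5, 21.0, 68.9, 21.0 and 55.0 FPKM in the control libraries and 7.33, 18.8, 5.70, 4.13 and 3.05 FPKM in the mTg libraries (log2 fold change -2.36 ± 0.41, adjusted p = 4.29e-04). Of 20 ATF4 and amino acid stress genes, however, only 5 fell (25%, against 23.1% of all genes) and 2 rose (10%, against 22.4%). *Ddit3*, CHOP, rose from 15.6 to 28.0 FPKM (0.81 ± 0.18, groups overlapping), and *Atf4* was not called (-0.14, 95% interval -0.32 to 0.04). Without control replicate 5 and mTg replicates 1 and 2 the counts were 6 higher and 3 lower. Heat shock and unfolded protein genes rose in 9 of 24 (37.5%, against 22.4% of all genes) and fell in 5 (20.8%, against 23.1%). Without those 3 libraries the counts were 17 and 4. The glucose-regulated chaperone *Hsp90b1* (from 49.4 to 67.9 FPKM, 0.45 ± 0.08) and the disulfide isomerase *Pdia3* (from 23.4 to 34.1 FPKM, 0.52 ± 0.09) rose, and cytosolic *Hsp90ab1* fell (from 559.5 to 424 FPKM, -0.40 ± 0.08). Of amino acid transporters, *Slc38a4* fell from 46.4 to 8.80 FPKM (log2 fold change -2.35 ± 0.24, adjusted p = 3.65e-06) and *Slc43a1* from 9.01 to 3.14 FPKM (-1.24 ± 0.15). The list of 16 had 5 genes lower (31.3%, against 23.1% of all genes) and 1 higher (against 22.4%). Without control replicate 5, 3 fell, and without all 3 libraries named above 3 rose and 3 fell. Every mTg library lay below every control in 2 of the 16, against 16.0% of all genes. Of 17 immediate early genes 6 fell (35.3%, against 23.1% of all genes) and none rose (against 22.4%). In 2 of the 17 every mTg library lay below every control, against 16.0% of all genes. The largest fall was that of the nuclear receptor *Nr4a1*, which was 118, 148, 154, 165 and 109 FPKM in the control libraries and 54.9, 37.0, 45.1, 72.1 and 42.3 FPKM in the mTg libraries (log2 fold change -1.47 ± 0.16, adjusted p = 8.83e-06).

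Several enzymes that remove reactive oxygen species rose. *Sod2*, the mitochondrial superoxide dismutase, was 70.5, 63.8, 63.5, 63.4 and 67.4 FPKM in the control libraries and 238, 219, 173, 168 and 191 FPKM in the mTg libraries (log2 fold change 1.56 ± 0.09, adjusted p = 3.27e-08). *Prdx5*, *Prdx6*, *Prdx2* and *Prdx3* rose by 1.46 ± 0.08, 1.31 ± 0.07, 1.01 ± 0.08 and 0.62 ± 0.07, and the uncoupling protein gene *Ucp3* by 1.34 ± 0.14. Cytosolic *Sod1* (0.06, 95% interval -0.14 to 0.26) was not called. The secreted glutathione peroxidase *Gpx3* fell from 201 to 109 FPKM (-0.86 ± 0.12), as did *Gsr*, glutathione reductase (-0.59 ± 0.07), and *Keap1*, which restrains the antioxidant factor NRF2 (-0.42 ± 0.07). In the list of 28, 13 rose and 5 fell. Heme and iron genes rose in 13 of 21 and fell in 1. *Alas1*, the rate-limiting enzyme of heme synthesis outside the erythroid lineage, was 47.7, 49.0, 45.1, 46.6 and 58.7 FPKM in the control libraries and 117, 117, 142, 120.1 and 118 FPKM in the mTg libraries (log2 fold change 1.30 ± 0.08, adjusted p = 5.59e-08). *Tfrc*, the transferrin receptor, was 50.8, 46.9, 34.9, 45.2 and 48.7 FPKM in the control libraries and 167, 217, 117, 86.2 and 86.6 FPKM in the mTg libraries (log2 fold change 1.47 ± 0.22, adjusted p = 1.36e-04). In *Tfrc*, mTg replicates 1 and 2 were the highest, and all mTg libraries exceeded all controls. *Fth1*, ferritin heavy chain, fell from 718 to 560.0 FPKM (-0.37 ± 0.09), and the iron-sulfur scaffold *Iscu* rose from 60.1 to 118 FPKM (0.96 ± 0.08).

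Angiogenic factors and endothelial markers rose together. Of 20 angiogenic factor and receptor genes 11 rose and 1 fell (none without control replicate 5). *Vegfb*, a VEGF family ligand linked to fatty acid transport across the endothelium, was 70.4, 74.6, 65.2, 68.3 and 80.1 FPKM in the control libraries and 246, 179, 207, 174 and 199 FPKM in the mTg libraries (log2 fold change 1.47 ± 0.09, adjusted p = 6.00e-08), and *Vegfa*, the main angiogenic ligand, rose from 72.2 to 124 FPKM (0.77 ± 0.13). *Apln*, apelin, rose from 0.832 to 3.93 FPKM (1.44 ± 0.11), its receptor *Aplnr* from 3.33 to 9.88 FPKM (1.38 ± 0.19), *Fgf1* from 9.38 to 19.9 FPKM (1.01 ± 0.11) and the hypoxia-inducible factor *Epas1*, HIF-2α, from 35.3 to 70.6 FPKM (0.97 ± 0.09). *Angpt2* was not called (0.11, 95% interval -0.08 to 0.30). Endothelial markers rose in 12 of 14 and fell in none (median 0.62), and their summed level was 187 to 226 FPKM in controls and 284 to 375 FPKM in mTg. *Emcn*, endomucin, was 11.9, 10.4, 9.77, 10.1 and 11.2 FPKM in the control libraries and 17.5, 16.6, 20.3, 23.2 and 23.3 FPKM in the mTg libraries (log2 fold change 0.85 ± 0.10, adjusted p = 1.18e-05), *Tie1* rose by 0.80 ± 0.09 and *Pecam1* by 0.64 ± 0.08. *Robo4* was not called (0.24, 95% interval 0.01 to 0.47), but it was without mTg replicate 1 (0.32). In bulk tissue, more cells of a type and more RNA per cell cannot be told apart, and the same holds for fewer cells and less RNA. *Apln*, *Aplnr*, *Nrp1* (0.84 ± 0.12) and *Epas1* are themselves expressed by endothelium, and the part of the endothelium in these increases was not tested. Pericyte and smooth muscle markers rose in 5 of 10 and fell in none (median 0.22), with *Pdgfrb* from 12.7 to 18.5 FPKM (0.50 ± 0.09). Notch ligand *Dll4* and its relative *Jag1*, also expressed by endothelium, rose by 0.59 ± 0.10 and 0.40 ± 0.08.

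Interferon and antigen presentation genes rose in 20 of 26 and fell in none (median 0.49). The class II genes *H2-Aa* and *H2-Ab1* rose by 0.78 ± 0.12 and 0.85 ± 0.15 and *B2m*, of class I, from 122 to 186 FPKM (0.60 ± 0.08). Macrophage markers rose in 5 of 13 (38.5%, against 22.4% of all genes) and fell in none (median 0.21). In 2 of the 13 all mTg libraries lay above all controls, against 16.3% of all genes. The summed level of these markers was 94.9 to 137 FPKM in controls and 121 to 200.02 FPKM in mTg. *Mpeg1* rose from 0.926 to 2.33 FPKM (0.79 ± 0.09) and *Adgre1*, F4/80, was not called (0.21, 95% interval -0.03 to 0.45). *Ptprc*, the pan-leukocyte marker CD45, rose from 0.608 to 1.27 FPKM (0.49 ± 0.08), the one tested member of the 13 neutrophil and lymphocyte markers. The part of immune cells in the interferon genes was not tested.

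Extracellular matrix genes rose in 10 of 30 (33.3%, against 22.4% of all genes) and fell in 3 (10%, against 23.1%). Without control replicate 5 and mTg replicates 1 and 2 the counts were 18 and 2. The basement membrane collagens *Col4a1* (from 44.6 to 79.0 FPKM, 0.77 ± 0.15) and *Col4a2* (0.66 ± 0.13) rose. Of 12 fibroblast markers 2 rose and 3 fell (16.7% and 25%, against 22.4% and 23.1% of all genes). Without those libraries 5 of them rose and 2 fell. Of 7 satellite cell markers 1 rose and 4 fell (none and 3 without those libraries, or without control replicate 5 alone), with *Cdh15* from 8.61 to 4.17 FPKM (-0.90 ± 0.09) and *Pax7* from 0.721 to 0.394 FPKM (-0.30 ± 0.07). Schwann cell markers were lower in 6 of 9 (median -0.33). Of 10 adipocyte markers 3 rose, 1 fell and 6 were not called, those 6 with log2 fold changes of -0.56 to -0.22. Their summed level was 1268 to 1619 FPKM in controls and 687 to 1001 FPKM in mTg, but most of that is *Car3*, carbonic anhydrase III, which myofibers also express (938, 1033, 1095, 1097 and 725 FPKM in the control libraries and 144, 324, 164, 168 and 163 FPKM in the mTg libraries; log2 fold change -2.39 ± 0.19, adjusted p = 4.20e-07). The defining *Adipoq* was not called (-0.43, 95% interval -1.14 to 0.28), whereas the fatty acid binding protein gene *Fabp4* (0.47 ± 0.10) and *Pparg*, the adipogenic nuclear receptor (0.46 ± 0.12), rose. *Adig*, adipogenin, was 4.71, 6.38, 6.73, 9.19 and 8.16 FPKM in the control libraries and 80.7, 70.5, 61.3, 58.5 and 63.2 FPKM in the mTg libraries and rose (log2 fold change 3.10 ± 0.14, adjusted p = 3.58e-09).

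**Figure D5:**
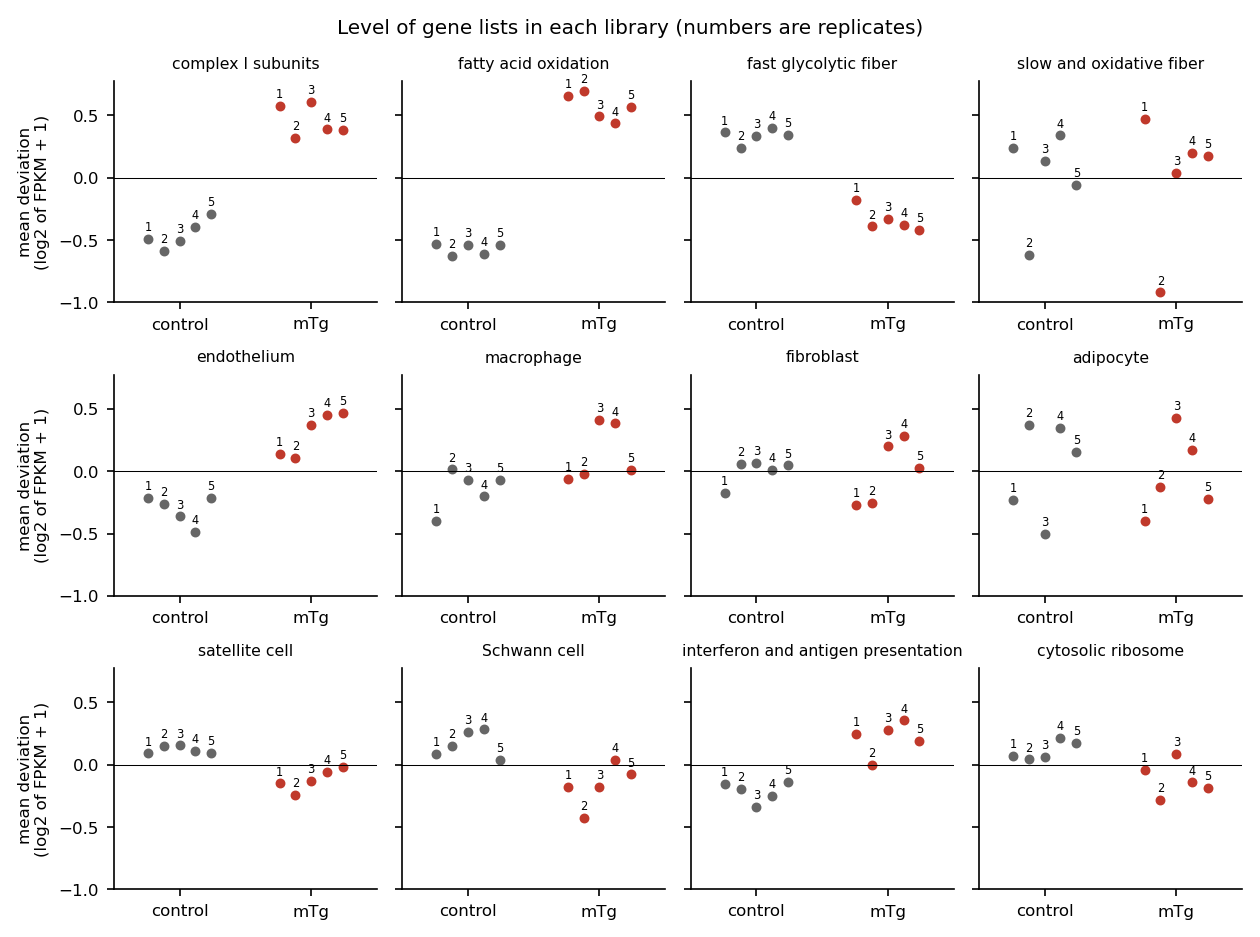
Mean deviation of the members of 12 gene lists in each library (vertical axis, log2 of FPKM + 1, from the mean over the 10 libraries), control in gray and mTg in red, with the replicate number above each point. Complex I, fatty acid oxidation and endothelial lists lie higher in every mTg library, the fast fiber list lies lower in every one, and the slow fiber list spreads widely in both groups with replicate 2 the lowest of each.

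Muscle-secreted factors changed singly. *Fndc5*, the precursor of irisin, was 37.7, 35.7, 36.1, 37.0 and 39.1 FPKM in the control libraries and 173, 149, 137, 135 and 161 FPKM in the mTg libraries (log2 fold change 1.99 ± 0.07, adjusted p = 1.06e-09). *Il15*, interleukin 15, rose from 4.98 to 16.5 FPKM (1.52 ± 0.15), and *Metrnl*, meteorin-like, from 2.08 to 3.11 FPKM (0.42 ± 0.10, groups overlapping). *Gdf11*, a close relative of myostatin, fell from 3.76 to 1.03 FPKM (-1.22 ± 0.09) and *Ostn*, musclin, from 3.76 to 1.37 FPKM (-1.01 ± 0.14). In all, 4 of 15 rose (26.7%, against 22.4% of all genes) and 5 fell (33.3%, against 23.1%). Without control replicate 5 and mTg replicates 1 and 2, 7 rose.

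Direct comparison with the Ex libraries, which does not use the controls, showed oxidative genes higher and slow fiber genes lower in mTg than after running. Here 2425 genes (20.8%) were higher in mTg than in Ex and 2395 (20.6%) were lower. The deposited mTg and Ex columns may have been normalized apart, so that a constant factor per library may remain. Per the methods, Ex mice were harvested some hours after their last bout of running. The part of that timing in these differences was not tested. All 36 complex I genes, all 23 fatty acid oxidation genes and 41 of 48 mitochondrial ribosome genes were higher in mTg. *Esrra* was higher by 1.09 ± 0.06 on the log2 scale (adjusted p = 2.62e-08) and *Ppargc1a* by 2.92 ± 0.09, its Ex libraries being 6.39, 4.87, 6.07, 7.34 and 6.87 FPKM. Endothelial markers were higher in mTg for 9 of 14, such as *Emcn* (0.72 ± 0.10, adjusted p = 4.87e-05). Slow and oxidative fiber genes stood the other way, with 13 of 15 lower in mTg than in Ex and 1 higher, including *Myh2* (-1.88 ± 0.18, adjusted p = 1.78e-06) and *Myl2* (-2.33 ± 0.34, adjusted p = 9.73e-05). *Mb* was the one higher (0.53 ± 0.11, adjusted p = 0.00133), and *Casq2* was not separated (-0.08 ± 0.17, adjusted p = 0.717). Of the 15 fast fiber genes 8 were lower in mTg than in Ex and none was higher, for example *Actn3* (-0.96 ± 0.08, adjusted p = 5.65e-07).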

How the data were processed

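Poly(A) RNA of quadriceps was made into stranded libraries (TruSeq) and read as 75-base single ends, and the authors aligned the reads to mm10 with STAR. The submitters' processing notes name DESeq2 1.1.0, as run in BaseSpace. The annotation used and how reads matching several places were treated were not stated. The deposited tables hold FPKM per gene and library. Fold changes and p-values of the authors' own comparisons stand beside them in the deposited tables and were not used. Of the genes listed, 21 have names turned into dates by a spreadsheet. Of 5582 genes in the mTg table, 80 have no row in the table of all samples and were not analysed here.

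Genes that averaged 0.5 FPKM or more in the 10 libraries were tested with limma 3.58.1 (R 4.3.3) on log2(FPKM + 1), a scale that understates changes of low genes, with a mean-variance trend, 2-sided, and Benjamini-Hochberg adjustment over all 11648 genes at 0.05. Errors of fold changes are standard errors, n = 5 per group. The mTg and Ex libraries were compared by the same model. Ratios of 2 genes, with 0.1 FPKM added to each, were compared by an exact two-sided permutation test of 5 against 5 libraries (smallest p 0.00794), adjusted over 32 ratios. FPKM steps gave whole reads for all 12529 genes (tolerance 0.01 of a read), which served for depth and a voom alternative. Deep libraries carry less counting error, but the spread between libraries sets the errors given.

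Members and lists were chosen with earlier results of these data known, so that their counts are descriptions. Named were *Ppargc1a*, the 25 largest increases and decreases without overlap, the 10 largest gains and losses of FPKM, in each list up to 6 called members of smallest p in the direction with more calls and up to 3 in the other, uncalled members, members of the gene pairs, and *Nnt*. Alternatives were another pseudocount, other filters, other scalings, voom, all 15 libraries, a replicate block and leaving out libraries. Replicate numbers did not pair the libraries. Some genes are not reported here.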

Additional observations from a re-analysis of the deposited data

Results flagged for a closer look

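Of the 261 genes named, each checked in both groups (522 sets of 5 libraries), 44 sets (8.43%) had 1 library far from the other 4, with a gap to its neighbor over 0.71 of the range of the set. Chance gives about 1 in 20. Control replicate 5 stood far above the other controls in *Alas1* (58.7 FPKM), *Ckmt2* (1426 FPKM), *Coq5* (58.3 FPKM), *Dlat* (62.3 FPKM), *H2-Ab1* (19.6 FPKM), *Kcnj11* (66.9 FPKM), *Mb* (2324 FPKM), *Odc1* (94.9 FPKM), *Ostn* (5.33 FPKM), *Pdha1* (379 FPKM), *Pdlim3* (346 FPKM), *Prdx6* (49.4 FPKM), *Slc16a1* (12.9 FPKM), *Smox* (507 FPKM), *Sms* (34.5 FPKM), *Sod1* (217 FPKM), *Tbc1d1* (19.1 FPKM) and *Tmem100* (21.0 FPKM). The same library stood far below them in *Actn3* (3126 FPKM), *Chrne* (11.5 FPKM), *Idh2* (97.1 FPKM) and *Ttn* (126 FPKM). Replicate 2 of mTg stood far above the other mTg libraries in *Abcc9* (37.4 FPKM), *Car3* (324 FPKM), *Chac1* (18.8 FPKM) and *Rora* (6.200 FPKM). The same library stood far below them in *Bckdha* (170.2 FPKM), *Got2* (403 FPKM) and *Psmb10* (10.3 FPKM). Replicate 1 of mTg stood far above the other mTg libraries in *Acadvl* (736 FPKM), *Gpt* (39.8 FPKM), *Jph2* (153 FPKM), *Mylk2* (264 FPKM) and *Phb* (70.8 FPKM). Control replicate 2 stood far above the other controls in *Akt2* (71.0 FPKM). The same library stood far below them in *Ak3* (32.4 FPKM), *Mybpc2* (1612 FPKM), *Myl3* (92.9 FPKM) and *Phkg1* (275 FPKM). Replicate 3 of mTg stood far above the other mTg libraries in *Alas1* (142 FPKM) and *Ckmt2* (5054 FPKM). Replicate 4 of mTg stood far above the other mTg libraries in *Tmem100* (3.29 FPKM). The same library stood far below them in *Cds1* (6.80 FPKM). Control replicate 1 stood far above the other controls in *Ampd1* (725 FPKM). With 22 of these sets, control replicate 5 accounted for more of them than any other library, and it is also the control whose reads differed most from the rest.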

How the results depend on the processing

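Counts of genes called stayed within 1.5 times under every alternative run but one: with 0.1 in place of 1 added to FPKM, 779 genes rather than 487 were lower in mTg than in Ex by over 1.5-fold. The same setting gave 1270 genes higher and 813 lower than in controls by over 1.5-fold, against 953 and 560. Between mTg and controls 2664 genes were higher and 2255 lower after scaling to TPM, 2678 and 2581 after median-of-ratios scaling, and 2808 and 2442 with voom. With 1 library left out at a time 2340 to 2637 were higher and 2354 to 2715 lower. Without control replicate 5 and mTg replicates 1 and 2 together, a setting chosen after seeing the data, these counts were 2784 and 2995.

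Replicate numbers did not pair the libraries: deviations of same-numbered libraries correlated at -0.22 to 0.15, and only number 1 matched its own number best. With the number as a replicate block 2541 genes were higher and 2533 lower, and of the 15 slow fiber genes 3 were higher and 6 lower. The block called *Tnni1* (-0.55), *Myl2* (-0.52), *Myl3* (-0.44) and *Myh7* (-0.55) lower and *Robo4* (0.24) higher. Of the 261 genes named, 252 kept their direction and side of the threshold throughout. The others were these 5 and *Atp5g2*, *Idh2*, *Ryr1* and *Nnt*. *Idh2* turned from 0.05 to -0.23 without the 3 libraries, and *Nnt* (0.51) was then no longer called. The cause was not tested. Among gene ratios, *Myh2* to *Myh4* missed the threshold without mTg replicate 5 (adjusted p = 0.0508, exact permutation test), and slow to fast *Myl3* to *Myl1* and *Tpm3* to *Tpm1* passed it without mTg replicate 2 (log2 ratio higher by 0.88 and 0.97, adjusted p = 0.0127, exact permutation test). Genes under 2 FPKM carry the most counting error.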

Other observations

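Several of the largest changes fell outside the gene lists. Among increases, *Paqr4*, which encodes a membrane protein of the progestin and adipoQ receptor family, was 1.92, 2.28, 2.66, 2.65 and 2.13 FPKM in the control libraries and 22.3, 18.8, 20.3, 19.9 and 20.9 FPKM in the mTg libraries (log2 fold change 2.69 ± 0.08, adjusted p = 2.19e-10, limma). *Ppif*, cyclophilin D of the mitochondrial permeability transition pore, was 26.1, 25.6, 26.4, 28.0 and 31.9 FPKM in the control libraries and 108, 96.7, 108, 105 and 101 FPKM in the mTg libraries (log2 fold change 1.88 ± 0.07, adjusted p = 1.06e-09). *P2ry1*, a purine receptor for ADP, rose from 2.39 to 13.9 FPKM (2.12 ± 0.10), *Kcng4*, a modifier subunit of voltage-gated potassium channels, from 21.2 to 86.4 FPKM (2.0 ± 0.11), the mitochondrial carrier family gene *Slc25a34* from 6.08 to 35.4 FPKM (2.38 ± 0.13) and *Sco2*, a copper chaperone of cytochrome c oxidase, from 1.87 to 10.4 FPKM (2.02 ± 0.14). In each of these 6 genes every mTg library lay above every control.

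Among decreases, *Mss51*, a muscle gene that takes its name from a yeast translational activator of mitochondria, was 35.7, 26.1, 30.3, 28.2 and 44.5 FPKM in the control libraries and 4.83, 4.41, 3.98, 4.30 and 3.80 FPKM in the mTg libraries (log2 fold change -2.67 ± 0.12, adjusted p = 3.98e-09). *Mrln*, which encodes myoregulin, a micropeptide that inhibits the SERCA calcium pump, was 113, 121, 109.9, 116 and 131 FPKM in the control libraries and 29.0, 29.8, 41.7, 33.3 and 28.2 FPKM in the mTg libraries (log2 fold change -1.85 ± 0.10, adjusted p = 1.42e-08). *Casr*, the calcium-sensing receptor, fell from 3.53 to 0.159 FPKM (-1.96 ± 0.09), *Tmem100*, a membrane protein best known from endothelium, from 12.2 to 2.20 FPKM (-2.0 ± 0.19) and *Cpeb1*, a regulator of cytoplasmic polyadenylation, from 40.0 to 9.42 FPKM (-1.98 ± 0.08). All mTg libraries of these 5 genes lay below all controls, *Tmem100* included, although most endothelial markers moved the other way.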
